A study of Mus musculus with 16 samples.

Results

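The immediate early genes described here are 10 genes that neurons switch on first after a stimulus: the AP-1 genes Fos, Fosb, Jun and Junb, the zinc finger genes Egr1 and Egr3, the nuclear receptor genes Nr4a1, Nr4a2 and Nr4a3, and the effector gene Arc. They were taken by symbol, whatever their values, from a table of read counts for 24539 genes, and all 10 were in it. The RNA came from GAD67-GFP-positive cells laser-captured in the cortical plate of fixed embryonic day 14.5 brains, about 1000 cells for each library. The 16 libraries came from separate litters of CD1 dams, 1 embryo labelled male from each, all GAD67-GFP+/-.

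The 4 embryos of each group shared an exposure. The cypermethrin stressed group had dams gavaged with alpha-cypermethrin, a pyrethroid insecticide, at 10 mg/kg on gestational days 11 to 14 and restrained under bright light. The cypermethrin non-stressed group had the insecticide without restraint, the vehicle stressed group had corn oil and restraint, and the vehicle non-stressed group had corn oil alone. Restraint was given as 3 sessions of 45 min on days 12 and 13 and as a last session on day 14, which ended 15 min before euthanasia. Every dam, stressed or not, had the last gavage 90 min before euthanasia. The reporter marks GABAergic cells.

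Immediate early genes are transcribed within minutes of calcium entry or growth factor signalling, without new protein synthesis. Kinases of the MAP kinase and calcium/calmodulin pathways act on SRF with its ternary complex partners and on CREB, which are already bound near these genes, and the transcripts are short-lived. Most of the products are transcription factors that act on a second wave of genes, and Arc acts at synapses. In the adult brain Fos, Egr1 and Arc are used as marks of recently active neurons, and acute restraint raises them in stress-responsive regions of the adult rodent brain.

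CREB binds a motif whose core is TGACG, and it was searched on both strands in the 250 bases before the RefSeq transcription start (build GRCm38.p6) of the 7 members that had an entry there. It was present in 6 of these 7 windows, those of Fos, Fosb, Junb, Nr4a1, Nr4a2 and Nr4a3, and in 17.8% of all 32851 such windows. The complete palindrome TGACGTCA was in 0 of the 7 (1.55% of all windows), the AP-1 motif TGANTCA in 0 (6.75%) and the CArG box bound by SRF in 0 (1.47%). Sites beyond these 250 bases were not searched, and Egr1, Egr3 and Arc had no entry, so sites elsewhere would be missed. The EGR motif GCGNGGGCG was in 3, those of Fosb, Nr4a1 and Nr4a2 (4.7%), and TATAAA in 2, those of Fos and Nr4a2 (12.4%). The stretches below are shown because they belong to Fos, the best known of these genes, and to the NR4A receptors, whose windows held the most matches. They run 5′ to 3′ on the gene's strand and overlap no annotated exon of the gene, although that of Nr4a1 lies inside the annotated gene, in an intron of its longer transcripts and just before a later start. They have each match to TGACG or its reverse complement in capitals.
Fos (chr12:85473640-85473889, plus strand): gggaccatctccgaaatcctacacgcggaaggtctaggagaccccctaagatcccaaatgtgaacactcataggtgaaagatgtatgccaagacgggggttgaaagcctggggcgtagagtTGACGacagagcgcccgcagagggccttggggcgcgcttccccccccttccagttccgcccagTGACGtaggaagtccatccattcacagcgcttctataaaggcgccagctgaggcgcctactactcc
Nr4a1 (chr15:101266596-101266845, plus strand): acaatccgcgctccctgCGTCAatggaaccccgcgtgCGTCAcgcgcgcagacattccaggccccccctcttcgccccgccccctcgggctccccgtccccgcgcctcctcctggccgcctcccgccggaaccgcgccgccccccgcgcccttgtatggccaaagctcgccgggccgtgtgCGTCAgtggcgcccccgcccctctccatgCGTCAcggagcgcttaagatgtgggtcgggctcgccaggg
Nr4a2 (chr2:57124004-57124253, minus strand): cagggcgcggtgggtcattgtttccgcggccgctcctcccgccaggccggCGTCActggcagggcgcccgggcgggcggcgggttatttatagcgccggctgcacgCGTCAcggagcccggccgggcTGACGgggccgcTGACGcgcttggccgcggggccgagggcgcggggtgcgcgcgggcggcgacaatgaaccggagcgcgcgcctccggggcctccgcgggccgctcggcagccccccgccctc
Nr4a3 (chr4:48045055-48045152, plus strand): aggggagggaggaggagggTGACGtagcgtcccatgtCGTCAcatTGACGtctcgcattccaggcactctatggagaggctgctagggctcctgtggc

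**Figure D1:**
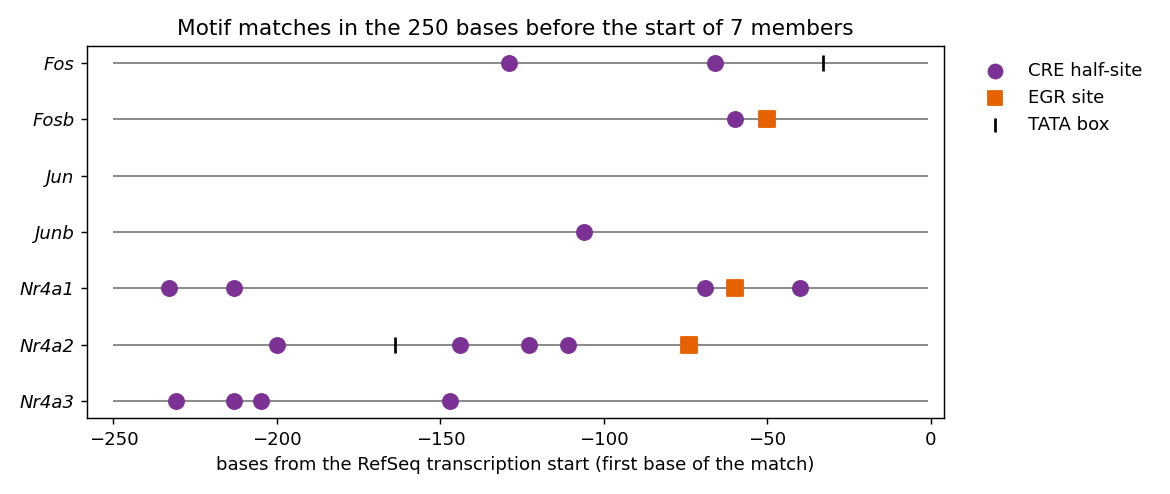
Positions of motif matches in the 250 bases before the RefSeq start of 7 members (x axis, bases from the start to the first base of the match; 1 row for each gene). Circles mark the TGACG core on either strand, squares the EGR motif and bars TATAAA. Nr4a1, Nr4a2 and Nr4a3 have 4 circles each, Fos has 2, and Jun has no match.

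Nr4a1, Nr4a2 and Nr4a3 each had 4 matches to TGACG in the full window, Fos had 2, Fosb and Junb had 1 each and Jun had none. A match is a string of letters and was not tested as a binding site.

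Total counts ran from 2291283 to 4324129 for each library, with a median of 3695782.5. Levels are given as CPM, which are counts divided by the scaled library size, and a count of 0 in a single library allows 0.662 to 1.43 CPM, counting error only. The 13 interneuron markers, Gad1, Gad2 and Lhx6 among them, had a count in the table without exception, with a summed level of 1500 to 2460 CPM. The 9 glutamatergic neuron markers summed to 4480 to 7480 CPM, the 5 Cajal-Retzius markers to 1640 to 3080 CPM and the 9 radial glia markers to 606 to 894 CPM. The 10 pericyte and meningeal markers summed to 1360 to 4030 CPM, the 10 endothelial markers to 203 to 924 CPM and the 10 macrophage markers to 46.8 to 518 CPM. Markers of other cell types were thus present in every library, and in such bulk samples fewer cells of a type and less RNA in each cell cannot be told apart. The library labelled vehicle stressed replicate 1 went against its label of male, with 9521 counts of Xist against at most 26 in the other 15, and it was kept in its labelled group. A code in the library descriptions, of unstated meaning, divides the libraries into 7 with code 1 and 9 with code 0.

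The members differed widely in level, and of the activity marks Egr1 was the third highest while Fos and Arc were near the bottom. Per kilobase of exon, Nr4a3 had 33.2 ± 11.1 CPM (SD, n = 16), Nr4a2 8.78 ± 6.69, Egr1 8.36 ± 5.97, Jun 6.9 ± 2.57 and Nr4a1 2.02 ± 0.973 CPM. Egr3 had 0.691 ± 0.64, Junb 0.499 ± 0.459, Fos 0.357 ± 0.864, Arc 0.081 ± 0.194 and Fosb 0.00474 ± 0.013 CPM per kilobase. Nr4a3 lay above Nr4a2 in 16 of 16 libraries, and Jun above Nr4a1 in 16 of 16. Neighbours in between did not separate: Nr4a2 was above Egr1 in 8 of 16 libraries and Egr1 above Jun in 7 of 16. At the low end Nr4a1 was above Egr3 in 13 libraries, Egr3 above Junb in 11, Junb above Fos in 10, Fos above Arc in 7 and Arc above Fosb in 3. Among 18242 genes with a count and a known exon length, 93.8% had a lower level per kilobase than Nr4a3 and 71.0% than Egr1, against 21.8% for Fos, 11.4% for Arc and 0.63% for Fosb. Nr4a3 made up 64.9% of the summed CPM of the 10 members.

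**Figure D2:**
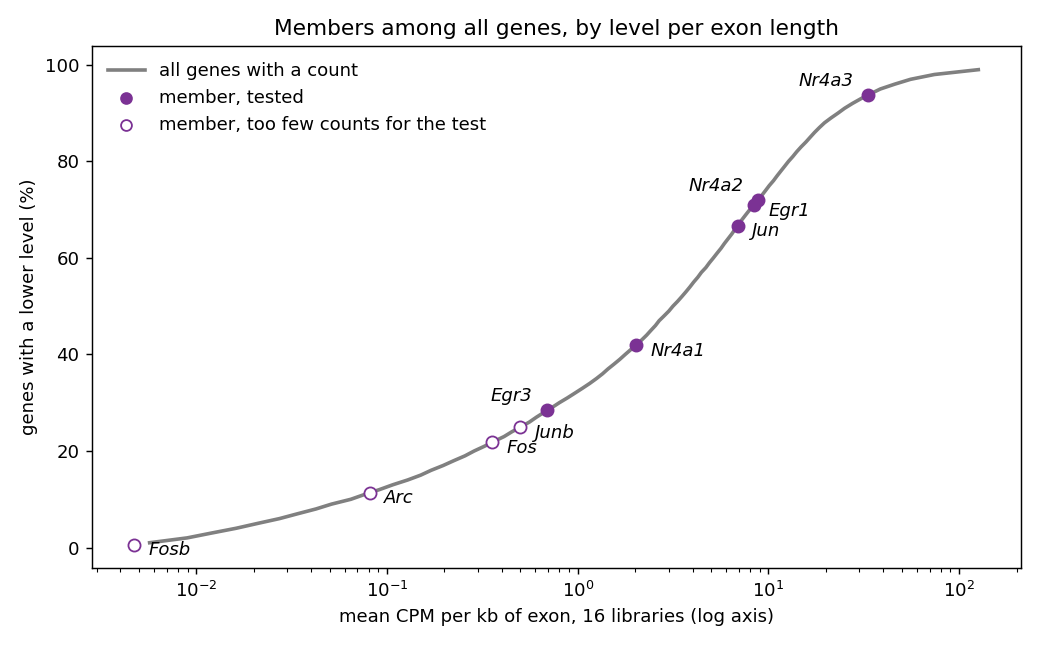
Mean level per kilobase of exon over 16 libraries (x axis, CPM per kb, log axis) against the share of genes with a lower level (y axis, percent). The grey line is all 18242 genes and the circles are the 10 members, filled for the 6 that were tested; Nr4a3 sits at 93.8% and Fosb at 0.63%.

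Of the 10 members, 6 had enough counts for a test across all genes (Jun, Egr1, Egr3, Nr4a1, Nr4a2 and Nr4a3), and 4 did not (Fos, Fosb, Junb and Arc). No member changed past the threshold in any comparison. With edgeR's quasi-likelihood test and Benjamini-Hochberg adjustment, a gene was called when its adjusted p was under 0.05, and 0 of 13224 genes were called in each of the 6 comparisons (0%), so 0 of 6 members stands against a background of 0. At an unadjusted p under 0.05 there were 672 genes for stress in vehicle dams (5.08%), 491 for cypermethrin without stress (3.71%) and 197 for both exposures against neither (1.49%). The average effect of stress had 679 (5.13%), the average effect of cypermethrin 607 (4.59%) and the interaction 622 (4.7%). Over these 6 comparisons the 6 tested members had 3 unadjusted p values under 0.05, and they belonged to Nr4a3 and Egr1. Complete separation of the libraries of 2 groups was seen for Nr4a2 with stress in vehicle dams and for Nr4a3 with cypermethrin among stressed dams, as described below. It was seen for no member in the other pairs of groups, where 2.52% of tested genes showed it for cypermethrin without stress, 2.62% for both exposures against neither and 2.58% for stress among cypermethrin dams. Between 8 and 8 libraries it was seen for no member, and for 0.0302% of tested genes by cypermethrin and 0% by stress. DESeq2 called 0 genes in 5 comparisons and 1 gene, no member, for cypermethrin averaged over stress.

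**Figure D3:**
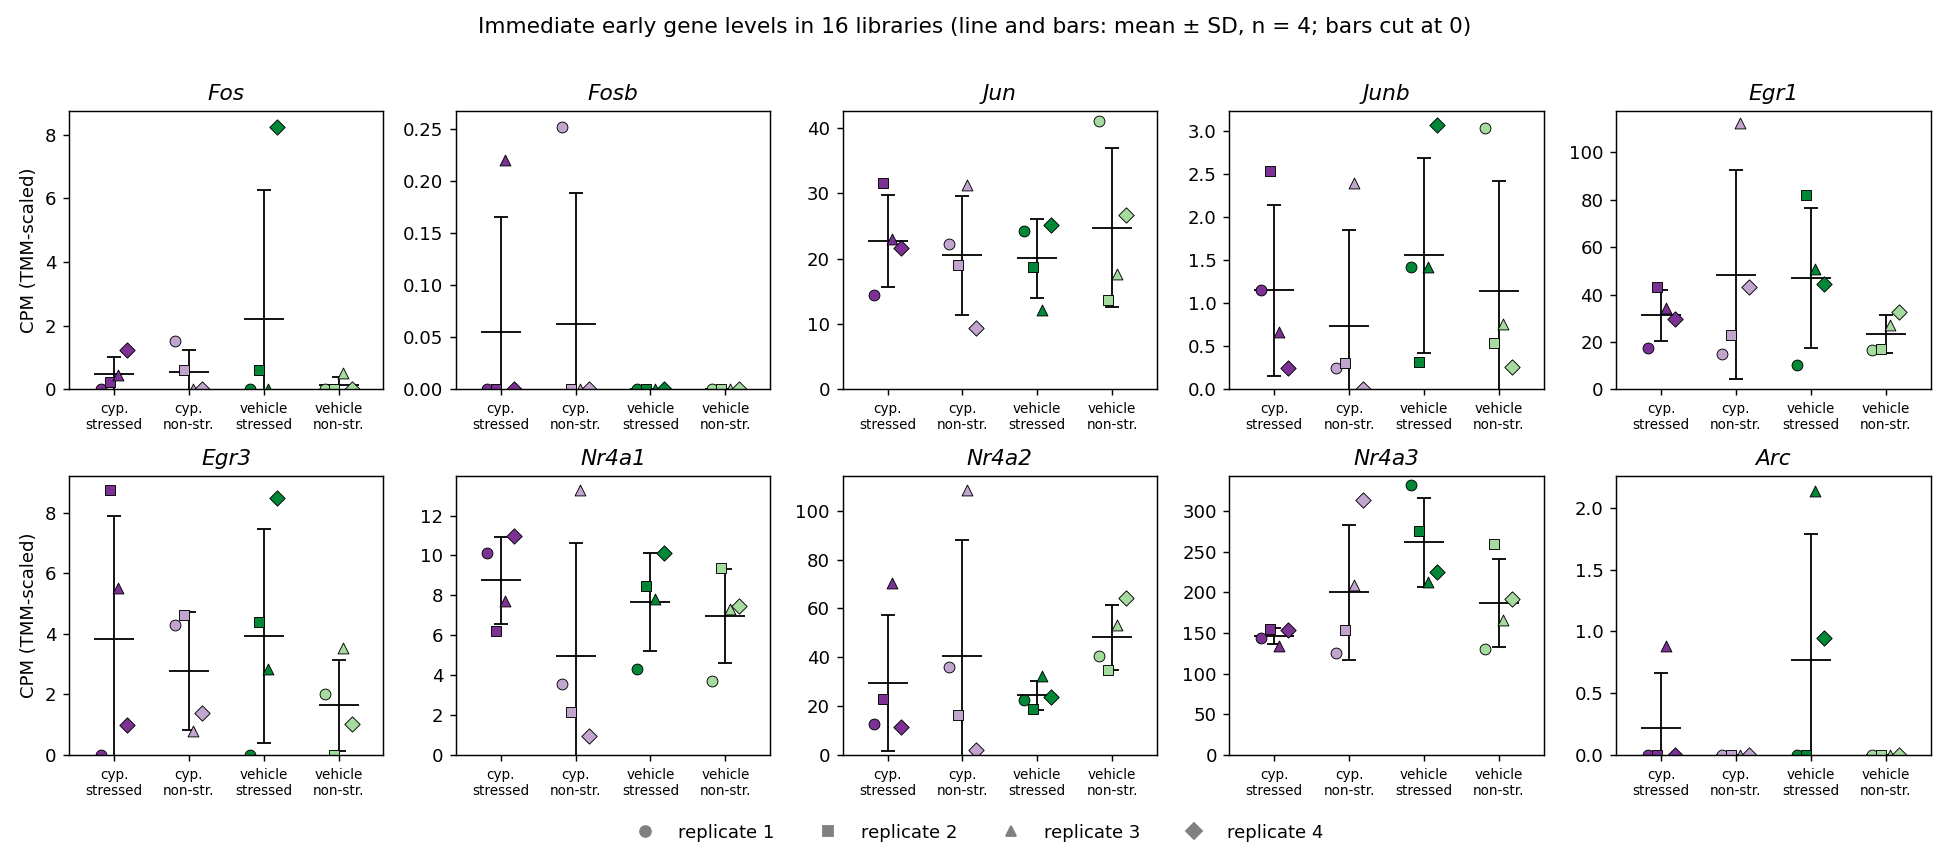
CPM of the 10 members in each library (y axis, linear, a scale of its own for each gene), by group along the x axis, with markers for replicates 1 to 4 and a line and bars for the mean ± SD (n = 4, bars cut at 0). Nr4a3 lies at 134 to 155 CPM in the cypermethrin stressed group and at 213 to 333 CPM in the vehicle stressed group, and Fos has a single high library at 8.25 CPM.

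Nr4a3 (chromosome 4, 48045153 to 48086447, plus strand; build mm10 here and below, all members protein coding) encodes the orphan nuclear receptor NOR1, which binds DNA without a known ligand. It had 144, 155, 134 and 153 CPM in the cypermethrin stressed libraries and 125, 154, 209 and 314 CPM in the cypermethrin non-stressed ones. It had 333, 276, 213 and 226 CPM in the vehicle stressed libraries and 131, 260, 166 and 192 CPM in the vehicle non-stressed ones. The group of both exposures was thus the most uniform and the lowest, at 147 ± 9.74 CPM (SD, n = 4), against 187 ± 54.5 CPM with neither. All 4 of its libraries lay below all 4 vehicle stressed libraries, a separation in either direction that 3.04% of tested genes showed, while the other pairs of groups overlapped. The interaction of Nr4a3, the effect of cypermethrin in stressed dams minus that in non-stressed dams, was -0.93 ± 0.36 on the log2 scale (SE), with edgeR's unadjusted p = 0.0146 and adjusted p = 0.985. It was -0.80 without the library labelled vehicle stressed replicate 1, which had the highest level, and -0.64 without cypermethrin non-stressed replicate 4. With each library left out in turn, the unadjusted p was under 0.05 in 15 of 16 fits. These fits share most of their libraries and are not independent. In the alternative fits with edgeR or DESeq2 the smallest adjusted p of this interaction was 0.759. Within code 0 the interaction was -0.95 and within code 1 it was -0.39.

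For stress in vehicle dams the log2 difference of Nr4a3 was 0.48 ± 0.25, with edgeR's adjusted p = 0.965, and it was 0.35 when the library labelled vehicle stressed replicate 1 was left out. For both exposures against neither it was -0.35 ± 0.25 (adjusted p = 1), and -0.15 without vehicle non-stressed replicate 2, and for cypermethrin without stress 0.10 ± 0.25 (adjusted p = 0.999). These 3 comparisons share the vehicle non-stressed libraries. Averaged over stress, cypermethrin went with a log2 difference of -0.37 ± 0.18 (edgeR, unadjusted p = 0.0485, adjusted p = 0.981), with 174 ± 61.9 CPM in the 8 cypermethrin libraries and 224 ± 64.3 CPM in the 8 vehicle libraries (SD). Its unadjusted p was under 0.05 in 5 of the 16 fits with 1 library left out. With the library labelled vehicle stressed replicate 1 left out the difference was -0.30 (unadjusted p = 0.106, adjusted p = 0.996). It was -0.83 within code 1 and -0.14 within code 0. Averaged over cypermethrin, stress went with 0.02 ± 0.18 (adjusted p = 0.998), with 2 SE reaching to -0.34 and 0.37. Of the 6 tested members Nr4a3 was measured most precisely: its biological coefficient of variation was 0.271, and 10.6% of tested genes had a lower dispersion.

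Nr4a2 (chromosome 2, 57106830 to 57124003, minus strand) encodes NURR1, the nuclear receptor of midbrain dopamine neurons, which in the cortex marks subplate and claustral neurons. Its level was 12.7, 22.8, 70.4 and 11.5 CPM in the cypermethrin stressed libraries and 35.8, 16.3, 108 and 1.87 CPM in the cypermethrin non-stressed ones. It was 22.4, 18.8, 32.4 and 23.8 CPM in the vehicle stressed libraries and 40.4, 34.7, 53.2 and 64.3 CPM in the vehicle non-stressed ones. Among vehicle dams all 4 stressed libraries lay below all 4 non-stressed ones, as 2.9% of tested genes did in either direction, while both cypermethrin groups spread over both. The fitted log2 difference for stress in vehicle dams was -0.98 ± 0.67 (SE, edgeR's adjusted p = 0.966), or -0.94 without the library labelled vehicle stressed replicate 1, and that for stress averaged over cypermethrin was -0.73 ± 0.47 (adjusted p = 0.96). The average rested on single libraries, at -0.15 without cypermethrin non-stressed replicate 3 and -1.18 without cypermethrin stressed replicate 3. For both exposures against neither it was -0.71 ± 0.66, and -1.62 without cypermethrin stressed replicate 3. For cypermethrin without stress it was -0.24 ± 0.66, but -1.39 without cypermethrin non-stressed replicate 3 and 0.16 without replicate 4 of that group. Averaged over stress the difference for cypermethrin was 0.02 ± 0.47 (adjusted p = 0.999).

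Nr4a1 (chromosome 15, 101254269 to 101274795, plus strand) encodes NUR77, the member of the family most often used as an activity mark. It had 10.1, 6.23, 7.73 and 11.0 CPM in the cypermethrin stressed libraries and 3.53, 2.16, 13.3 and 0.934 CPM in the cypermethrin non-stressed ones. It had 4.28, 8.46, 7.84 and 10.1 CPM in the vehicle stressed libraries and 3.70, 9.35, 7.32 and 7.46 CPM in the vehicle non-stressed ones. The cypermethrin non-stressed group held both the highest and the lowest library, and all groups overlapped. Averaged over cypermethrin, the log2 difference for stress was 0.47 ± 0.59 (edgeR's adjusted p = 0.98), and it was 1.04 without cypermethrin non-stressed replicate 3 and 0.30 without replicate 4 of that group. Averaged over stress, cypermethrin had -0.14 ± 0.58 (adjusted p = 0.995). This was -0.71 without cypermethrin non-stressed replicate 3 and 0.02 without replicate 4 of that group.

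Egr1 (chromosome 18, 34859823 to 34864984, plus strand) encodes the zinc finger factor also called Zif268, a target of SRF in stimulated neurons. It had 17.3, 43.4, 34.4 and 29.7 CPM in the cypermethrin stressed libraries and 15.1, 23.1, 112 and 43.0 CPM in the cypermethrin non-stressed ones. It had 10.5, 82.1, 50.9 and 44.6 CPM in the vehicle stressed libraries and 16.5, 17.1, 27.3 and 32.7 CPM in the vehicle non-stressed ones. The vehicle non-stressed group was the lowest and most uniform, at 23.4 ± 7.93 CPM (SD, n = 4), and its range overlapped that of every other group, although no vehicle stressed library lay inside it: 1 was below and 3 were above. With either exposure alone the log2 difference of Egr1 was close to 1, at 1.01 ± 0.56 for stress (edgeR's adjusted p = 0.965) and 1.05 ± 0.56 for cypermethrin (adjusted p = 0.999), and with both it was 0.42 ± 0.55 (adjusted p = 1). All of these differences share the vehicle non-stressed libraries, so they are not independent. The difference for stress was 1.34 without the library labelled vehicle stressed replicate 1 (unadjusted p = 0.0148, adjusted p = 1) and 0.60 without vehicle stressed replicate 2. That for both exposures was 0.21 without cypermethrin stressed replicate 2. The interaction was -1.64 ± 0.78 (unadjusted p = 0.0451, adjusted p = 0.985). It was -0.80 without cypermethrin non-stressed replicate 3 and -1.98 when the library labelled vehicle stressed replicate 1 was left out, and within codes 0 and 1 it was -1.57 and -0.47. With each library left out in turn, edgeR's unadjusted p of this interaction was under 0.05 in 6 of 16 fits. The difference for cypermethrin without stress was 0.21 without cypermethrin non-stressed replicate 3, and -0.15 within code 1.

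Cypermethrin non-stressed replicate 3 held the highest levels of Egr1, Nr4a1 and Nr4a2 of all 16 libraries and ranked among the top 3 for Jun. The same library had the highest summed level of 3 marker lists: 924 CPM for endothelial cells, 518 CPM for macrophages and 4030 CPM for pericytes and meningeal fibroblasts. The medians of these lists over the 16 libraries were 436, 140.0 and 2270 CPM, and of their 30 genes none was at 0 in every library. The part of these cell types in the levels of the 3 genes was not tested.

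Egr3 (chromosome 14, 70077203 to 70082614, plus strand) encodes a zinc finger factor that acts downstream of the same signals. Of the 6 tested members it had the fewest counts, 0, 38, 25 and 4 in the cypermethrin stressed libraries and 17, 15, 3 and 3 in the cypermethrin non-stressed ones. It had 0, 14, 8 and 36 counts in the vehicle stressed libraries and 6, 0, 14 and 4 in the vehicle non-stressed ones. The 3 highest levels, 8.77, 8.49 and 5.52 CPM, were all in stressed libraries, and so were 2 of the 3 libraries with no count. Averaged over cypermethrin, the mean was 3.88 ± 3.54 CPM in the 8 stressed libraries and 2.21 ± 1.73 CPM in the 8 non-stressed ones (SD), a log2 difference of 0.86 ± 0.94 (SE, edgeR's adjusted p = 0.972). It was 0.45 without cypermethrin stressed replicate 2 and 0.51 without vehicle stressed replicate 4. Averaged over stress, cypermethrin had 0.35 ± 0.93 (adjusted p = 0.995).

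Jun (chromosome 4, 95049034 to 95052222, minus strand) encodes c-Jun, the AP-1 subunit that also acts in axon growth and injury responses of neurons. It had 14.5, 31.6, 23.0 and 21.7 CPM in the cypermethrin stressed libraries and 22.2, 19.1, 31.4 and 9.34 CPM in the cypermethrin non-stressed ones. It had 24.3, 18.8, 12.1 and 25.2 CPM in the vehicle stressed libraries and 41.1, 13.6, 17.7 and 26.8 CPM in the vehicle non-stressed ones. The 4 groups overlapped throughout, and the group means ran only from 20.1 to 24.8 CPM. The log2 differences of Jun were -0.08 ± 0.36 for stress averaged over cypermethrin (edgeR's adjusted p = 0.995) and -0.05 ± 0.36 for cypermethrin averaged over stress (adjusted p = 0.997). With 2 SE the first reached -0.80 and 0.64, so a change anywhere between these values remains possible. These values are not a limit of detection. The antisense gene Junos overlaps the start of Jun, and use of strand is not stated, so reads of the 2 cannot be told apart.

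**Figure D4:**
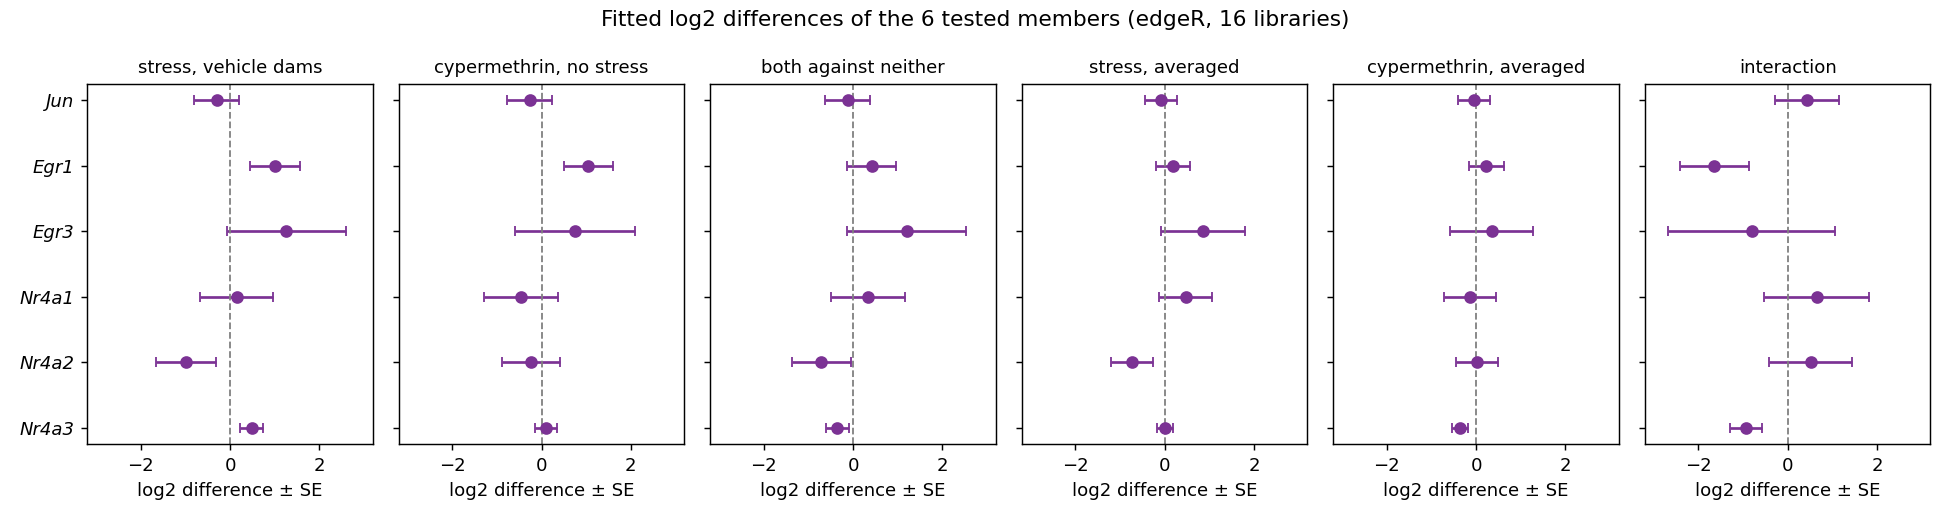
Fitted log2 differences (x axis, point ± SE) of the 6 tested members (y axis) in the 6 comparisons, 1 panel each, from edgeR over 16 libraries. No member passed the threshold; Nr4a3 has the shortest bars and Egr3 the longest, and Nr4a3 (-0.93) and Egr1 (-1.64) lie lowest relative to their bars in the interaction panel.

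The 4 members with too few counts for that test ranged from 2 counts (Fosb) to 66 counts (Junb) over all 16 libraries. Fos (chromosome 12, 85473890 to 85477273, plus strand), the partner of Jun in AP-1 and the classic activity mark, had 55 counts in all 16 libraries. It had 0, 1, 2 and 5 counts in the cypermethrin stressed libraries and 6, 2, 0 and 0 in the cypermethrin non-stressed ones. It had 0, 2, 0 and 35 counts in the vehicle stressed libraries and 0, 0, 2 and 0 in the vehicle non-stressed ones. A single library, vehicle stressed replicate 4, thus held 35 of the 55, at 8.25 CPM, and no other exceeded 1.51 CPM. Fos had a count in 5 of 8 stressed and 3 of 8 non-stressed libraries. Its mean was 1.35 CPM in stressed and 0.329 CPM in non-stressed libraries, and an exact two-sided permutation test of log2(CPM + 1) gave p = 0.409 (n = 8 each, adjusted p = 0.623 over 8 such tests).

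Arc (chromosome 15, 74669083 to 74672570, minus strand), whose product is trafficked to dendrites and trims AMPA receptors at synapses, had 14 counts. Cypermethrin stressed replicate 3 had 4, vehicle stressed replicates 3 and 4 had 6 and 4, and the other 13 libraries had none. All 3 libraries with Arc were stressed and all had code 0. Over the 8 non-stressed libraries pooled, a count of 0 allows up to 0.108 CPM. This covers counting error only and leaves out the spread between libraries. The exact two-sided permutation test between 8 stressed and 8 non-stressed libraries gave p = 0.2 (adjusted p = 0.623), the smallest it can give with counts in only 3 libraries. Fitted without the filter on low counts, Arc had an unadjusted p = 0.00806 for stress averaged over cypermethrin in edgeR's test, with an adjusted p = 0.673. That fit's fold change is set by the prior count, since all non-stressed libraries were at 0.

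Junb (chromosome 8, 84974484 to 84978718, minus strand), an AP-1 subunit that restrains Jun in some settings, had 66 counts spread over 15 libraries. Its counts were 4, 11, 3 and 1 in the cypermethrin stressed libraries and 1, 1, 9 and 0 in the cypermethrin non-stressed ones. They were 3, 1, 4 and 13 in the vehicle stressed libraries and 9, 2, 3 and 1 in the vehicle non-stressed ones, and every pair of groups overlapped. The mean level was 1.35 CPM in stressed and 0.941 CPM in non-stressed libraries (exact two-sided permutation p = 0.325, adjusted p = 0.623). Prdx2, on the other strand, overlaps the end of Junb, so these counts are uncertain. Fosb (chromosome 7, 19302696 to 19310051, minus strand), whose stable splice form builds up under repeated stimulation in the adult brain, had 1 count each in cypermethrin stressed replicate 3 and cypermethrin non-stressed replicate 1 and no other. For cypermethrin averaged over stress the exact permutation p was 0.926 for Fos, 0.467 for Fosb, 0.403 for Junb and 0.467 for Arc, with adjusted p of 0.623 or more. That of Fosb was the smallest the test can give with counts in only 2 libraries, so it decides nothing.

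**Figure D5:**
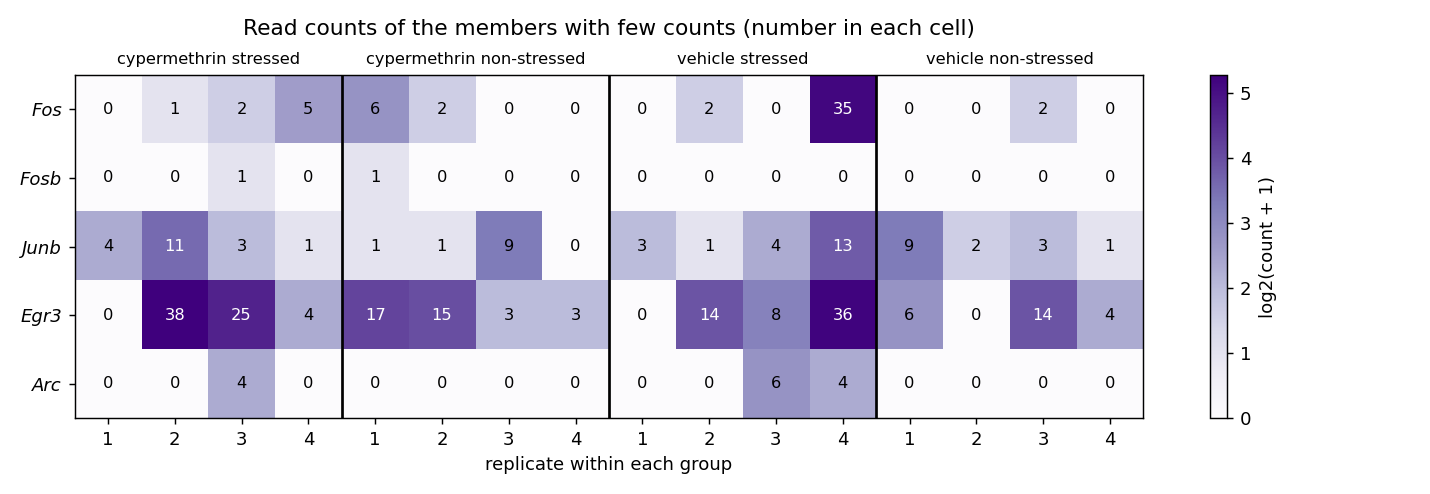
Read counts (numbers in the cells, colour as log2(count + 1)) of the 5 members with fewest counts (rows) in the 16 libraries (columns, by group and replicate). The counts of Arc are in 3 stressed libraries, and vehicle stressed replicate 4 holds 35 counts of Fos and 36 of Egr3.

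Vehicle stressed replicate 4 was among the 3 highest libraries for 5 members: Fos, Junb, Egr3, Nr4a1 and Arc. Cypermethrin non-stressed replicate 3 was so for 4, Jun, Egr1, Nr4a1 and Nr4a2, and shared only Nr4a1 with it. The summed markers of endothelial cells and macrophages in vehicle stressed replicate 4 were 410 and 119 CPM, below the medians over all libraries, and that of pericytes and meningeal fibroblasts was 1560 CPM. Its Cajal-Retzius sum of 3080 CPM was the highest of the 16, its interneuron sum of 2120 CPM ranked 3 and its radial glia sum of 827 CPM ranked 4. Cypermethrin non-stressed replicate 3 was also high, ranking 2 for Cajal-Retzius cells (3050 CPM) and 2 for radial glia (880 CPM). It ranked 6 for interneurons (1900 CPM). The part of these cell types in the levels of either library was not tested.

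The tested members did not move as a block from library to library. Over 16 libraries the 15 pairs of tested members had a median Pearson r of 0.105 on log2 CPM, 10 positive and 5 negative. The closest pairs were Jun with Nr4a2 (r = 0.577, Spearman rho = 0.465) and Nr4a1 with Nr4a2 (r = 0.566, rho = 0.135), and the lowest was Jun with Nr4a3 (r = -0.402). These are descriptions, since the libraries share groups and differ in depth. The genes whose log2 CPM lay closest to the mean of the 6 members over the 16 libraries were Tcf24 (r = 0.924), Rapgef5 (0.896), Ppp1r8 (0.874), A2m (0.865) and Col4a2 (0.86), chosen as the highest of all tested genes. Nr4a3 itself had r = -0.183 with that mean.

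Other immediate early genes were listed alongside, 48 in all, of which 34 were tested and 0 were called in any comparison. For stress in vehicle dams 22 had a positive and 12 a negative log2 difference (median 0.09 beside 0.01 over all tested genes). For stress averaged over cypermethrin 20 were higher and 14 lower (median 0.12 beside -0.00051), and for cypermethrin averaged over stress 19 were higher and 15 lower (median 0.06 beside 0.01). For cypermethrin without stress the split was 18 to 16, for both exposures against neither 20 to 14, and for the interaction 15 to 19. The highest levels per kilobase were those of Ier5, which modulates heat shock signalling (38.0 CPM per kb), Plk2, a kinase of synaptic scaling (31.6), Klf6, a zinc finger factor of axon growth (16.7), and Homer1, a synaptic scaffold (16.0). Nr4a3, at 33.2 CPM per kb, lay between Ier5 and Plk2. Those with the smallest p were Nfil3, a bZIP repressor, with an interaction of 2.83 ± 0.95 on the log2 scale (SE, edgeR's adjusted p = 0.985), and Scg2, a secretogranin, with -3.01 ± 1.05 for stress in vehicle dams (adjusted p = 0.965). Cebpd followed with -5.20 ± 1.91 for cypermethrin without stress (adjusted p = 0.999) and Maff with an interaction of 3.69 ± 1.60 (adjusted p = 0.985).

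The signalling genes upstream had no called gene either. All 20 listed transcription factors and cofactors and all 27 kinases were tested, with 0 called. Per kilobase the CREB coactivator genes Crebbp and Ep300 had 44.3 and 32.8 CPM, the MEF2 factor gene Mef2c 38.2 and the CREB family gene Atf2 37.4 CPM. Among kinases Camk4, which phosphorylates CREB in the nucleus, had 60.1 CPM and Map2k4, a kinase of the JNK pathway, 39.9 CPM per kilobase. For stress in vehicle dams 14 of the 20 factors had a positive log2 difference (median 0.19), as did 12 of the 27 kinases (median -0.05). For stress averaged over cypermethrin it was 12 factors (median 0.03) and 10 kinases (median -0.11), and for cypermethrin averaged over stress 9 factors (median -0.04) and 14 kinases (median 0.03). Over all tested genes, 50.8% were positive for stress in vehicle dams, 50.0% for stress averaged over cypermethrin and 51.1% for cypermethrin averaged over stress. The medians over all tested genes were 0.01, -0.00051 and 0.01 in the same order. Among the kinases with the smallest p were Camk1, with 1.61 ± 0.66 for stress averaged over cypermethrin (edgeR's adjusted p = 0.96), Map2k7, with 0.86 ± 0.36 for stress in vehicle dams (adjusted p = 0.965), and Camk4, with -0.31 ± 0.14 for stress averaged over cypermethrin (adjusted p = 0.96).

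Of 10 listed partners of AP-1 and the NR4A receptors 6 were tested and 0 called. Maf, a large MAF factor gene of migrating interneurons, had 15.3 CPM per kilobase, and the retinoid receptor genes Rxrb and Rxra, whose products pair with NR4A receptors, had 4.58 and 2.33. Rxra had the smallest p, with a log2 difference of -1.27 ± 0.48 for cypermethrin averaged over stress (edgeR's adjusted p = 0.981), and was followed by Rxrb (-0.92 ± 0.54, adjusted p = 0.999) and Mafg (-0.97 ± 0.68, adjusted p = 0.999) for cypermethrin without stress and by Maf with an interaction of -0.75 ± 0.46 (adjusted p = 0.985). For cypermethrin averaged over stress 1 of the 6 had a positive difference (median -0.27), and for stress averaged over cypermethrin 4 had one (median 0.21). Over all tested genes the positive share was 51.1% and 50.0% in the same order.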

How the data were processed

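Raw counts, as the authors deposited them, came in a single table with a row for each gene symbol and a column for each library. STAR 2.5 and build mm10 are named per the submitters' processing notes. How reads were counted, with which annotation, use of strand and filters, is not given in the sources used here. Without strand, overlapping genes share reads. Groups follow the labelled exposures. Replicate numbers follow accession order. The members and lists were chosen with earlier results of these data known.

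Counts were fitted with edgeR 4.0.16 in R 4.3.3 over all 16 libraries: filterByExpr with a count minimum of 10 (13224 genes kept, biological coefficient of variation 0.586), TMM scaling, 1 mean per group, robust quasi-likelihood tests, Benjamini-Hochberg adjustment over all tested genes, called under 0.05. The SE of a difference is its size divided by the root of F. Members below the filter were compared by exact permutation tests on log2(CPM + 1). Correlations used log2 CPM with a prior count of 2. Positions and exon lengths came from GENCODE vM21 (same build), and promoters from RefSeq. From each list the 4 genes with the highest level per kilobase and the 4 with the smallest p over the 6 comparisons are named, except a few that are not reported here. On simulated counts, 200 genes were changed 4-fold by stress, averaged over cypermethrin. Of these, edgeR called 138 with 8 false calls among 12936 genes tested, and DESeq2 1.42.0 called 152 with 27. Among the 100 changed genes above the median level, edgeR called 97 and DESeq2 100, so genes of lower level were recovered less often. Changes smaller than 4-fold and comparisons of 4 against 4 libraries were not simulated. Alternatives were DESeq2's size factors, no filter, DESeq2, the library code as a term, the 2 groups alone, and each library left out; fits within each code were added after seeing the data.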

Additional observations from a re-analysis of the deposited data

Results flagged for a closer look

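Within groups of 4, a library was set apart when its gap to the nearest other exceeded 0.829 of the group's range. For normally distributed values, chance gives this in about 1 in 20 groups. That rate does not hold for a library with counts where the rest had none, because its gap is always the whole range. In all, 36 groups with any spread were examined and 6 libraries met the rule. The values are CPM. Fos had 8.25 in vehicle stressed replicate 4 (35 counts, others 0 to 0.626), and 0.505 in vehicle non-stressed replicate 3, which is 2 counts where the rest had none. Junb had 2.39 in cypermethrin non-stressed replicate 3 (9 counts, others 0 to 0.308). Arc had 0.883 in cypermethrin stressed replicate 3, 4 counts where the rest had none. Fosb had 0.221 in cypermethrin stressed replicate 3 and 0.252 in cypermethrin non-stressed replicate 1, each a single count where the rest had none.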

How the results depend on the processing

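No member was called in any of the 23 alternative fits (smallest adjusted p = 0.633). Counts of called genes stayed at 0 except as follows. For cypermethrin averaged over stress DESeq2's test called 1, Cpeb1, and leaving out 1 library gave 0 to 1, the 1 being Dnajc1 without vehicle stressed replicate 3. Within code 1, where 7 libraries cover 4 groups and cypermethrin without stress is a single library assumed to vary like the rest, edgeR called 45 for stress in vehicle dams, 2 for cypermethrin without stress, 13 for both against neither, 14 and 7 for the averages of cypermethrin and stress and 9 for the interaction; within code 0 it called 0. The code 1 libraries include vehicle stressed replicate 1, which went against its label of male. Xist was among the genes called there for stress in vehicle dams, with a log2 difference of 11.1. The cause of these calls was not tested. Signs of small log2 differences turned round. For cypermethrin averaged over stress Nr4a2 was -0.081 with the code as a term and -0.14 within code 1, Egr1 -0.38 within code 1, Egr3 -0.40 and Jun 0.052 within code 0; leaving out 1 library gave -0.19 to 0.43 for Egr1, -0.051 to 0.70 for Egr3, -0.18 to 0.13 for Jun, -0.71 to 0.024 for Nr4a1 and -0.56 to 0.21 for Nr4a2. For stress averaged over cypermethrin Egr1 was -0.11 and Nr4a3 -0.18 within code 0; leaving out 1 library gave -0.016 to 0.61 for Egr1, -0.20 to 0.10 for Jun and -0.069 to 0.17 for Nr4a3. Within code 1 the interaction of Nr4a2 was -0.14 (-0.39 to 1.66 with 1 library left out) and Egr1 had -0.15 for cypermethrin without stress. The other 432 of 465 member values kept their sign. No paired analysis was possible because replicate numbers were given in accession order. Depth limits Fos, Fosb, Junb and Arc, whose levels lie near a count of 0.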

Other observations

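Upstream transcription factor and cofactor genes were set apart here by the signs of their interaction of cypermethrin and stress, picked after the values were seen. Of the 20, 18 had a negative and 2 a positive log2 interaction (median -0.36 beside -0.04 over all tested genes, of which 47.4% were positive), and 0 were called. Crtc1, a CREB coactivator gene, had 65.8 ± 12.6 CPM with both exposures, 85.7 ± 22.3 with cypermethrin, 156 ± 62.1 with stress and 82.3 ± 22.3 with neither (SD, n = 4 each), and its log2 difference for stress in vehicle dams was 0.92 ± 0.30 (SE, edgeR's adjusted p = 0.965). The SRF cofactor genes Mkl1 and Mkl2 had 1.29 ± 0.45 and 0.59 ± 0.23 in that comparison (adjusted p = 0.965 each). Mkl1 spread widely, at 88.9 ± 67.9 CPM with stress and 36.2 ± 9.13 with neither (SD), and Mkl2 had 173 ± 35.1 and 115 ± 16.8. Atf1, a CREB family gene, had -0.73 ± 0.33 for stress averaged over cypermethrin (adjusted p = 0.96). These genes share the same 16 libraries, so their directions are not independent.

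A pair of other immediate early genes with too few counts for the test had an SD close to or above the mean in each group with a count. Npas4, an activity-dependent factor gene of neurons, had 0.753 ± 0.895 CPM with both exposures, 3.16 ± 5.54 with cypermethrin, 1.49 ± 2.98 with stress and 0.696 ± 0.907 with neither, and Egr2 had 1.03 ± 0.949, 7.20 ± 13.3, 0 and 0.254 ± 0.357 CPM in the same order. These 2 were picked after their values were seen. Such a spread does not set them apart, since other untested genes of the list, Bdnf, Cebpb and Csrnp1 among them, had it too. Ier5l did not.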
